A study of Mus musculus with 32 samples.

Results

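The ribosome-bound mRNA of cholinergic neurons in the spinal cord of female mice was compared between 18 and 3 months of age. The members were chosen by age and sex in the sample labels, which gave 9 of the 32 libraries of the series, 5 from 18-month-old and 4 from 3-month-old females. Every mouse of both groups had the genotype Chat Cre; Ribotag, on a mixed genetic background and without any treatment in the labels. In these mice a Cre recombinase under the choline acetyltransferase (Chat) promoter switches on a hemagglutinin-tagged form of the ribosomal protein Rpl22 (HA-Rpl22), and the tagged ribosomes were precipitated from whole spinal cord and their RNA sequenced. The Chat promoter is also active in cholinergic neurons other than motor neurons, so the label cholinergic neurons covers more than motor neurons. The study's methods count each animal as 1 replicate, while the labels give only replicate numbers.

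Motor neurons of the spinal cord are the last neurons of the path from brain to muscle, and they carry very long axons that depend on motor proteins and on a large cytoskeleton. Their firing is set by glutamate, GABA and glycine at synapses and by serotonin from the brainstem, which acts through a family of receptors. With age they lose part of their contacts with muscle, and the question was which transcripts on their ribosomes differ at 18 months.

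The libraries held between 15182141 and 17995911 counts at 3 months and between 14510780 and 29547303 at 18 months, a difference in means that an exact two-sided permutation test did not separate from the spread (p = 0.437). Of 54232 listed genes, 17481 were tested, those whose counts averaged 5 or more across the 31 libraries of the 7 groups with replicates. The median log2 fold change of all genes tested, at 18 against 3 months, was -0.015, with 8244 genes higher and 9237 lower. The 4 Y-linked genes Ddx3y, Eif2s3y, Kdm5d and Uty had at most 10 counts in any of the 9 libraries. Levels are given below as normalized counts, that is counts scaled by library total and TMM factor to a mean library of 21581265 counts, and fold changes and p-values come from the quasi-likelihood fit of edgeR, with adjustment over all genes by the Benjamini-Hochberg method. Values written with ± SE are log2 fold changes of 18 against 3 months. In such data fewer cells of a type and less RNA per cell cannot be told apart.

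The 5 libraries of 18 months fell into 2 sets that have to be kept in view for every result. The first principal component of the 9 libraries, with 40.4% of the variance, placed 18-month replicates 1 and 2 at 52.6 and 55.8, and 18-month replicates 3, 4 and 5 at -48.9, -50.8 and -23.1, with the 3-month libraries between -8.10 and 29.3. This split moved with gene length. Genes were cut by exonic length into 5 equal classes. Each gene's log2 level was taken relative to its mean over all 31 libraries, of both sexes and all ages in the model. The median of the longest class minus that of the shortest was -0.20 and -0.19 in 18-month replicates 1 and 2. It was 0.49, 0.55 and 0.35 in replicates 3, 4 and 5, while the female 3-month libraries lay between -0.17 and 0.18. Across the 17465 genes with a length, fold change and exonic length had a Spearman coefficient of 0.21, over genes that share their libraries. Genes with an unadjusted p under 0.05 were 393 higher and 83 lower in the longest class, and 56 higher and 138 lower in the shortest. Its part in the results was not tested, and values with length offsets, without replicates 1 and 2, and without replicates 3 and 4 are given for several lists and for the genes described here with an unadjusted p under 0.05 whose fold change moved by over 1.5 times. The map of list medians by library shows which gene groups followed the split.

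**Figure D1:**
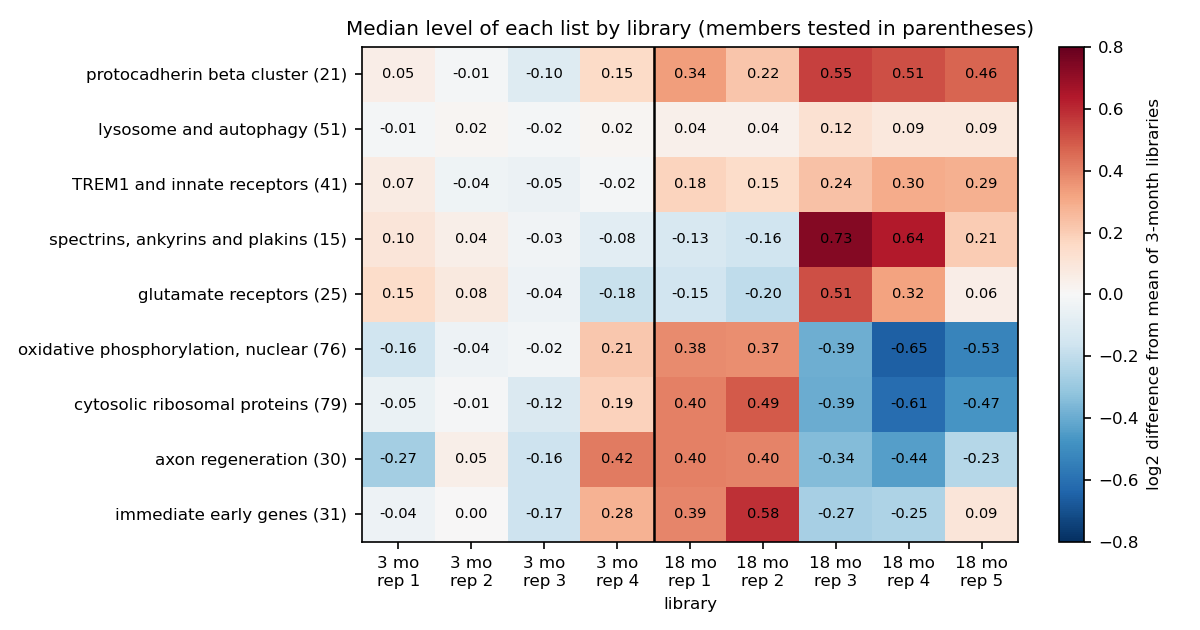
Median log2 level of 9 gene lists (rows, with the number of members tested) in each of the 9 female libraries (columns), relative to the mean of the 3-month libraries; colour and printed value give the same quantity. The protocadherin beta, lysosome and innate lists lay above 0 in all 5 libraries of 18 months, whereas the other 6 lists had different signs in 18-month replicates 1 and 2 and in replicates 3 and 4.

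The labelled cell type was checked against its markers. The 12 cholinergic motor neuron markers summed to between 219645 and 270988 normalized counts at 3 months and between 221394 and 272937 at 18 months. Nefh, the heavy neurofilament chain and a member of that list, had 115847 to 133269 at 3 months and 118999 to 140703 at 18 months, and the ages overlapped. The sum thus rests to a large part on Nefh and says little about the other members. The median log2 level of the 12 against the 3-month mean was -0.036, -0.18, 0.25, 0.22 and -0.050 in 18-month replicates 1 to 5. In the 3-month libraries it lay between -0.12 and 0.19. Chat itself had 847, 1029.7, 848 and 677 in the 3-month libraries and 414, 445, 2132, 2075 and 1711 in the 18-month libraries, so that it was lowest in 18-month replicates 1 and 2 and highest in replicates 3 to 5 (0.68 ± 0.59 SE on the log2 scale, adjusted p = 0.803). Rpl22, whose tagged form was precipitated, differed little (-0.14 ± 0.18 SE on the log2 scale, adjusted p = 0.883). Markers of other cells were present in every library. The 13 oligodendrocyte markers summed to between 24223 and 73359 at 3 months and 21513 and 55190.2 at 18 months, and the 12 astrocyte markers to between 34923 and 55436 and 29297 and 51868. All 13 oligodendrocyte markers and 11 of 12 astrocyte markers had lower fitted values at 18 months (medians -0.67 and -0.40), and 11 of 12 endothelial markers higher ones (median 0.49), each list with at most 1 member at an unadjusted p under 0.05. Blood markers varied widely, with erythroid sums of 15441 in 3-month replicate 4 and 47982 in 18-month replicate 5 against 279 in 18-month replicate 4.

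Of 17481 genes, 1 rose and 1 fell at an adjusted p under 0.05 (0.0114% of those tested, and 0.00572% in each direction). Dync1h1, the heavy chain and motor of cytoplasmic dynein, which carries cargo back along the axon (chromosome 12, 110601452 to 110666945, GRCm38), had 9954, 12106, 9951 and 12368 normalized counts in the 3-month libraries and 14927, 17328, 25750.5, 21270.5 and 16842 in those of 18 months. All 5 older libraries lay above all 4 younger ones, with the highest values in replicates 3 and 4 (0.79 ± 0.14 SE on the log2 scale, adjusted p = 0.0309). Htr1b, the serotonin receptor 1B, an inhibitory receptor that limits transmitter release (chromosome 9, 81628291 to 81633828), had 166, 133, 161 and 129 at 3 months and 45.2, 62.1, 45.1, 78.9 and 80.7 at 18 months. Its groups did not overlap either, and each library of 18 months held less than every one of 3 months (-1.22 ± 0.20 SE on the log2 scale, adjusted p = 0.0276). The means of the 12-month females lay between those of the groups for both genes, at 14533 ± 1924 (SD, n = 5) for Dync1h1 and 93 ± 16.1 (SD, n = 5) for Htr1b. With the length offsets the fold change of Dync1h1 was 0.65 (edgeR's adjusted p = 0.108) and that of Htr1b -1.23 (adjusted p = 0.00276). Both calls depended on single libraries. The adjusted p of Dync1h1 in edgeR's test was between 0.0636 and 0.246 when 3-month replicate 1, 2 or 3 or 18-month replicate 3 or 4 was left out, and that of Htr1b between 0.0627 and 0.190 without 3-month replicate 1, 2 or 3 or 18-month replicate 3, with fold changes of 0.67 to 0.84 and -1.27 to -1.13. Dync1h1 shares exonic sequence with Gm17111 and Gm35558 and Htr1b with D430036J16Rik, and whether the counting used strand is not given in the sources used here, so their reads cannot be fully told apart.

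Below that threshold, 1552 genes (8.88% of those tested) had an unadjusted p under 0.05, 847 higher (4.85%) and 705 lower (4.03%). The normalized counts of the 2 ages did not overlap for 592 genes (3.39%), 249 higher (1.42%) and 343 lower (1.96%). The genes that follow belong to these sets and did not pass the adjusted threshold, so they are described by their values. Among those with a mean count of at least 50 and no overlap, the smallest p-values of the higher genes after Dync1h1 belonged to Pcdhb3, Adamtsl5, 4932438A13Rik, Pcdhb10, Vps18, Stat6 and Pi4ka. Adamtsl5, a secreted protein of the extracellular matrix, went from 412 ± 95.5 (SD, n = 4) to 710.3 ± 148 (SD, n = 5) (0.79 ± 0.16 SE on the log2 scale, adjusted p = 0.0786). Stat6, the transcription factor of interleukin-4 signaling, had 208, 218, 195 and 270.0 at 3 months and 315, 313, 447, 484 and 337 at 18 months (0.77 ± 0.16 SE on the log2 scale, adjusted p = 0.0916). It shares exonic sequence with Nab2. Pi4ka, a lipid kinase that makes phosphatidylinositol 4-phosphate at the plasma membrane, went from 2989.6 ± 348 (SD, n = 4) to 4633 ± 1129.8 (SD, n = 5) (0.63 ± 0.14 SE on the log2 scale, adjusted p = 0.0958), and its exons overlap Snap29 and Tmem191c. The gene 4932438A13Rik went from 679 ± 109 (SD, n = 4) to 1082 ± 197 (SD, n = 5) (0.67 ± 0.14 SE on the log2 scale, adjusted p = 0.0786), and its exons overlap Gm12531. Without 18-month replicates 3 and 4 the fold change of Pi4ka was 0.35. In these 4 genes the difference from the 3-month mean was smaller in 18-month replicates 1 and 2 than in replicates 3 and 4.

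The lower genes were Htr1b, Ppp1r1c, Cdk2ap1, Paqr4, Tshz3, Nrep, Csrp2 and Pyurf. Nrep, a small neuronal protein tied to regeneration, had 1141, 1150.2, 1255 and 892 at 3 months, 884 ± 218 (SD, n = 5) at 12 months and 594, 576, 460.2, 551 and 472 at 18 months (-1.06 ± 0.23 SE on the log2 scale, adjusted p = 0.0916). The highest 18-month library thus held 594 and the lowest 3-month library 892. Ppp1r1c, an inhibitor of protein phosphatase 1, had 96.2, 140.4, 96.2 and 106 at 3 months, then 55.4, 66.5, 32.8, 59.9 and 43.3 (-1.09 ± 0.21 SE on the log2 scale, adjusted p = 0.0588). Tshz3, a zinc finger transcription factor of developing neurons, went from 228 ± 25.7 (SD, n = 4) to 138 ± 17.6 (SD, n = 5) (-0.72 ± 0.15 SE on the log2 scale, adjusted p = 0.0822). Cdk2ap1, a cell cycle protein, went from 1580.2 ± 95.9 (SD, n = 4) to 1179 ± 27.3 (SD, n = 5) (-0.42 ± 0.083 SE on the log2 scale, adjusted p = 0.0692), and its 5 older libraries differed by little. Paqr4, which shares exonic sequence with Pkmyt1, had a small difference with little spread, from 5059 ± 148 (SD, n = 4) to 4121 ± 209 (SD, n = 5) (-0.30 ± 0.06 SE on the log2 scale, adjusted p = 0.0786). Csrp2, a LIM domain protein of the cytoskeleton, and Pyurf had log2 fold changes of -0.62 ± 0.14 (SE) and -0.50 ± 0.11 (SE).

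**Figure D2:**
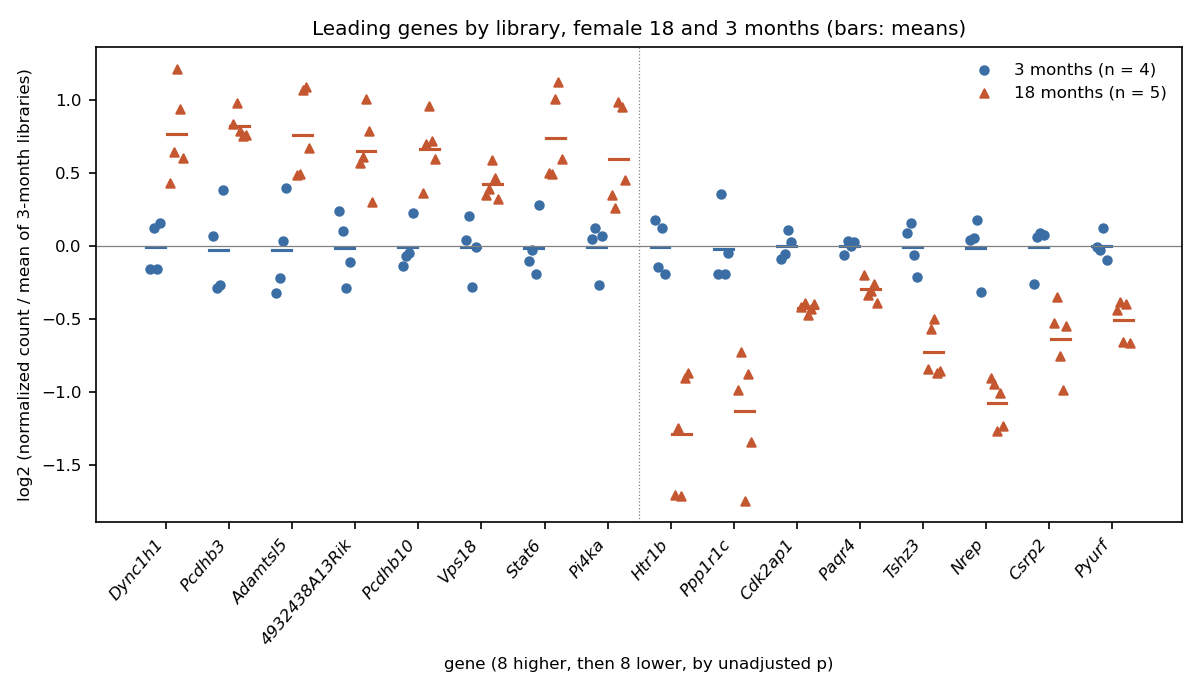
log2 of the normalized count over the mean of the 3-month libraries (vertical axis) for the 8 higher and 8 lower genes (horizontal axis, by unadjusted p); each point is 1 library, circles for 3 months (n = 4), triangles for 18 months (n = 5), and bars are group means. For all 16 genes the points of the 2 ages do not overlap, which is how they were chosen, and Dync1h1 and Htr1b are the 2 with an adjusted p under 0.05.

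The gene lists were then read against the shares of all genes tested, 4.85% higher and 4.03% lower at an unadjusted p under 0.05. For genes without overlap the shares were 1.42% higher and 1.96% lower. Every list count below is to be read beside these shares. The lists were chosen with earlier results of these data known, so they are described and not tested. The share of higher members was largest for the protocadherin beta cluster (10 of 21 tested), the spectrins, ankyrins and plakins (5 of 15), the lysosome and autophagy genes (10 of 51) and the TREM1 and innate receptors (7 of 41). The share of lower members was largest for the genes the study's text names in aged motor neurons (3 of 16) and the steroid receptors and hormone targets (5 of 29). In 8 lists no member was higher at that threshold, among them the GABA and glycine receptors (0 of 25), the sodium and calcium channels (0 of 25), the oxidative stress genes (0 of 40) and the chaperones (0 of 46).

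**Figure D3:**
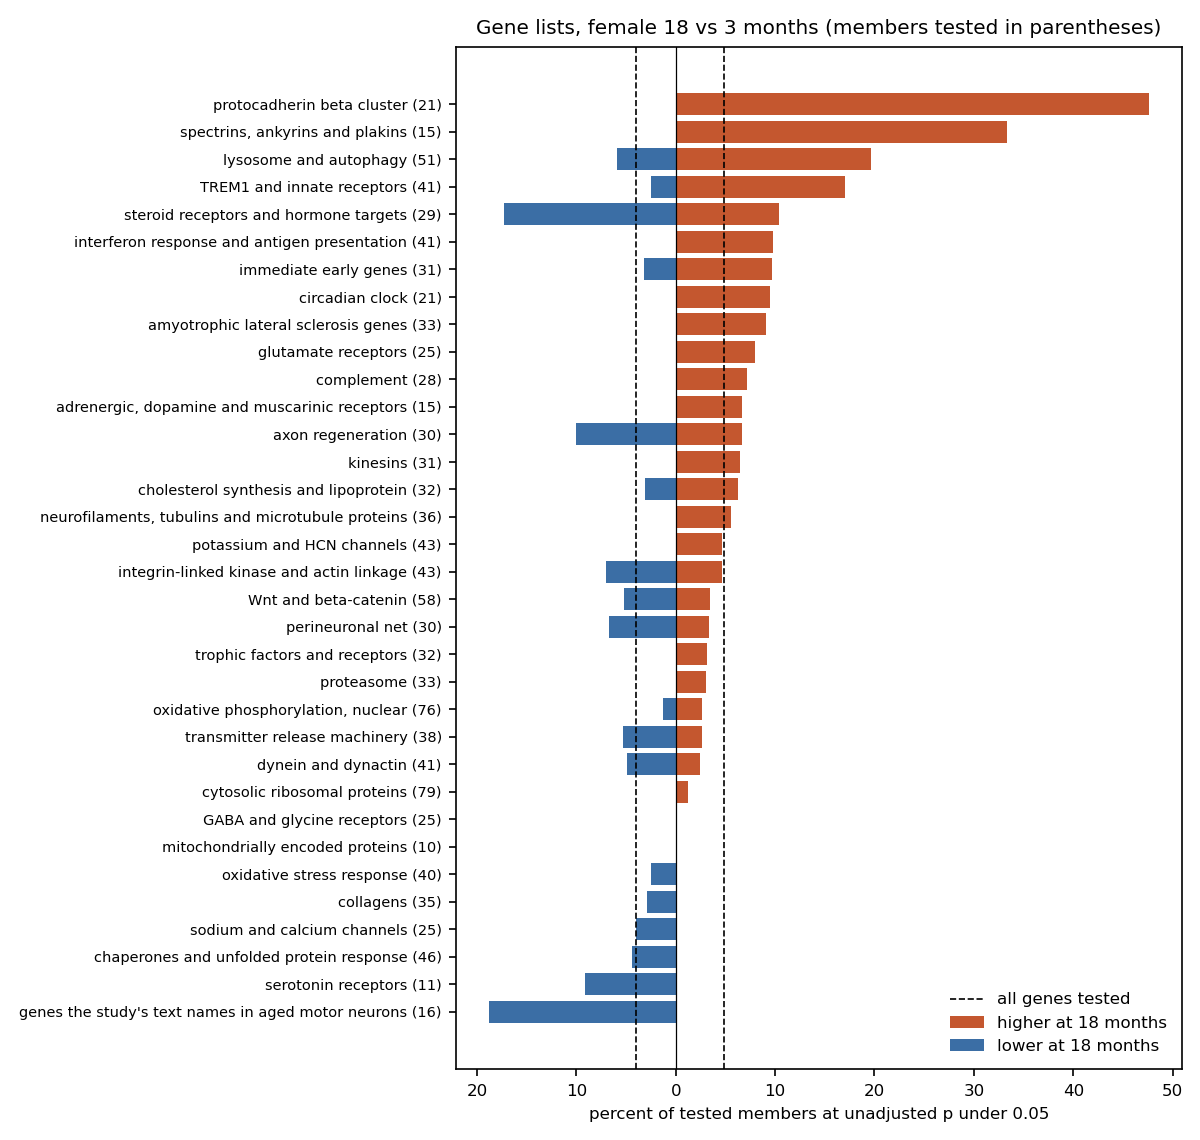
Percent of tested members of each of 34 gene lists (rows, number tested in parentheses) with an unadjusted p under 0.05 in edgeR's test of 18 against 3 months, higher to the right and lower to the left; dashed lines mark the shares of all 17481 genes tested, 4.85% higher and 4.03% lower. The protocadherin beta cluster stands farthest to the right, with 10 of 21 members.

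The clustered protocadherins are cell surface proteins that each neuron expresses in its own combination and that let neurites of the same cell recognize and avoid each other. Of the 22 genes of the beta cluster, which lie side by side on chromosome 18, 21 were tested and Pcdhb1 was not. At 18 months 19 of the 21 were higher and 2 lower. Their median log2 fold change was 0.53, beside -0.015 over all genes. The 10 members with an unadjusted p under 0.05 were all higher, 47.6% of the list beside 4.85% of all genes, and 4 did not overlap between the ages (Pcdhb3, Pcdhb7, Pcdhb9 and Pcdhb10). As the list was chosen with earlier results of these data known, this share is a description and no test. Pcdhb3 had 211, 166, 168 and 263 at 3 months, 307 ± 42.0 (SD, n = 5) at 12 months and 360.3, 398, 348, 341 and 341 at 18 months (0.82 ± 0.15 SE on the log2 scale, adjusted p = 0.053). Its 18-month libraries were close together, and the lowest of them was above the highest of 3 months. Pcdhb10 had 77.2, 80.8, 82.1 and 99.4 at 3 months, then 109, 137, 165, 139 and 129 (0.68 ± 0.14 SE on the log2 scale, adjusted p = 0.0786). Pcdhb7 had 164, 197, 195 and 185 at 3 months, then 267, 262, 270.4, 284 and 268 (0.55 ± 0.15 SE on the log2 scale, adjusted p = 0.208), the least spread of the cluster at 18 months relative to its level.

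The fold changes of the remaining protocadherin beta genes covered a wide range. Pcdhb2 had the largest fitted value, 1.48 ± 0.47 (SE), at a mean of 20.6 normalized counts at 3 months and 56.8 at 18 months. Pcdhb8 (0.81 ± 0.25 SE), Pcdhb4 (0.75 ± 0.33 SE), Pcdhb19 (0.60 ± 0.20 SE), Pcdhb9 (0.57 ± 0.18 SE), Pcdhb15 (0.53 ± 0.24 SE) and Pcdhb14 (0.33 ± 0.15 SE) completed the 10. Pcdhb12 (-0.12 ± 0.27 SE) and Pcdhb16 (-0.036 ± 0.26 SE) were the 2 on the other side of 0, and Pcdhb18 was at 0.032 ± 0.18 (SE). The median of the list was 0.53 with length offsets, 0.52 without 18-month replicates 1 and 2 and 0.29 without replicates 3 and 4. Without replicates 3 and 4 the fold change was 0.79 for Pcdhb2, 0.32 for Pcdhb4 and 0.26 for Pcdhb19, and without replicates 1 and 2 it was 0.23 for Pcdhb15. In the males of the same ages, which share no library with the females, the median of the list was 0.40. These genes have near-identical paralogs in the cluster, so reads may have been split or lost among them and the values of single members are uncertain.

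**Figure D4:**
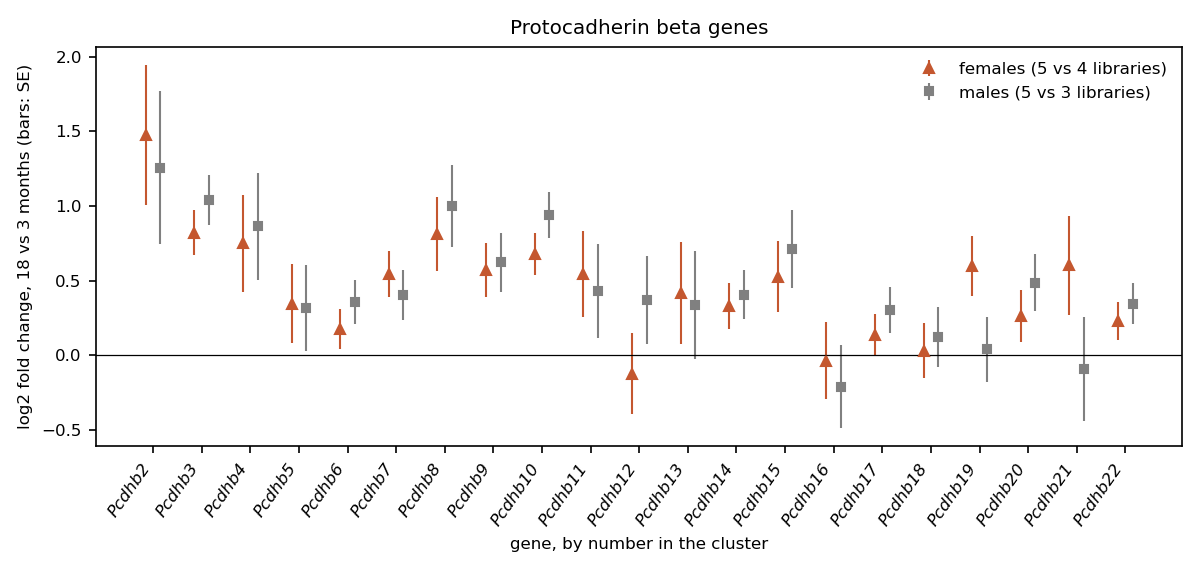
Fitted log2 fold change at 18 against 3 months (vertical axis, bars are SE) of the 21 tested protocadherin beta genes in their order of number (horizontal axis), in females (triangles, 5 against 4 libraries) and males (squares, 5 against 3 libraries). In females 19 of 21 points lie above 0, from Pcdhb18 at 0.032 to Pcdhb2 at 1.48.

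Lysosomes break down what endocytosis and autophagy deliver, and the HOPS and CORVET complexes tether endosomes and autophagosomes to them before fusion. Of 51 lysosome and autophagy genes, all tested, 36 had a fold change above 0 and 15 below, and the median was 0.084. At an unadjusted p under 0.05, 10 were higher (19.6%, beside 4.85% of all genes) and 3 lower (5.88%, beside 4.03%). The ages did not overlap for 6, all of them higher, beside 1.42% of all genes. The subunits shared by both tethering complexes were 4 of 4 higher at that threshold (Vps11, Vps16, Vps18 and Vps33a). Vps18 had 1546, 1730.3, 1239.8 and 1497 at 3 months and 1914, 1967, 2262, 2077 and 1881 at 18 months, with 1665 ± 70.6 (SD, n = 5) at 12 months (0.43 ± 0.088 SE on the log2 scale, adjusted p = 0.0786). Every library of 18 months was above every one of 3 months, in both sets. Vps11 had 1562, 1512, 1358 and 1337 at 3 months, then 1603, 1578, 2615, 2248 and 1805 (0.45 ± 0.12 SE on the log2 scale, adjusted p = 0.199), again without overlap but with the 2 lowest older libraries just above the highest younger one. Vps33a (0.50 ± 0.18 SE) and Vps16 (0.24 ± 0.11 SE) overlapped between the ages. The HOPS subunits Vps39 and Vps41 had fold changes of 0.24 ± 0.12 (SE) and 0.093 ± 0.17 (SE).

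The higher lysosomal genes also included a proton pump subunit, an ion channel and an enzyme. Atp6v0a1, a membrane subunit of the vacuolar ATPase that acidifies the lysosome, had 8436, 8826, 7541 and 7604 at 3 months and 10041, 8812, 12847, 11731 and 10008 at 18 months (0.40 ± 0.1 SE on the log2 scale, adjusted p = 0.163). Only 18-month replicate 2 was within the range of the younger libraries. Mcoln1, the lysosomal calcium channel TRPML1, had 1185, 1272, 1002 and 1166 at 3 months, then 1341, 1271, 1984, 1784 and 1471 (0.44 ± 0.12 SE on the log2 scale, adjusted p = 0.191). Gaa, the acid alpha-glucosidase, had a fold change of 0.44 ± 0.21 (SE). Tfe3, a transcription factor of lysosomal genes, did not overlap between the ages (0.23 ± 0.084 SE), while its relative Tfeb was at -0.21 ± 0.19 (SE). Mtor, the kinase that holds autophagy back, was at 0.77 ± 0.33 (SE), but its values of 808, 882, 2991, 2259 and 1419 at 18 months lay within the 716 to 1204 of 3 months in replicates 1 and 2 and above it in the other 3. Some genes of the core autophagy machinery had fold changes below 0. Atg5 (-0.23 ± 0.084 SE), Atg12 (-0.24 ± 0.093 SE) and Map1lc3a (-0.31 ± 0.13 SE), which are needed to build the autophagosome membrane, were the 3 lower members. Without 18-month replicates 3 and 4 the fold change of Mtor was 0.082, that of Gaa 0.12, that of Tfe3 0.13, that of Vps11 0.20, that of Vps33a 0.25, that of Mcoln1 0.23, that of Atp6v0a1 0.25, that of Map1lc3a -0.20 and that of Vps18 0.35. Without replicates 1 and 2 Mtor was at 1.18, Gaa at 0.70 and Map1lc3a at -0.52.

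**Figure D5:**
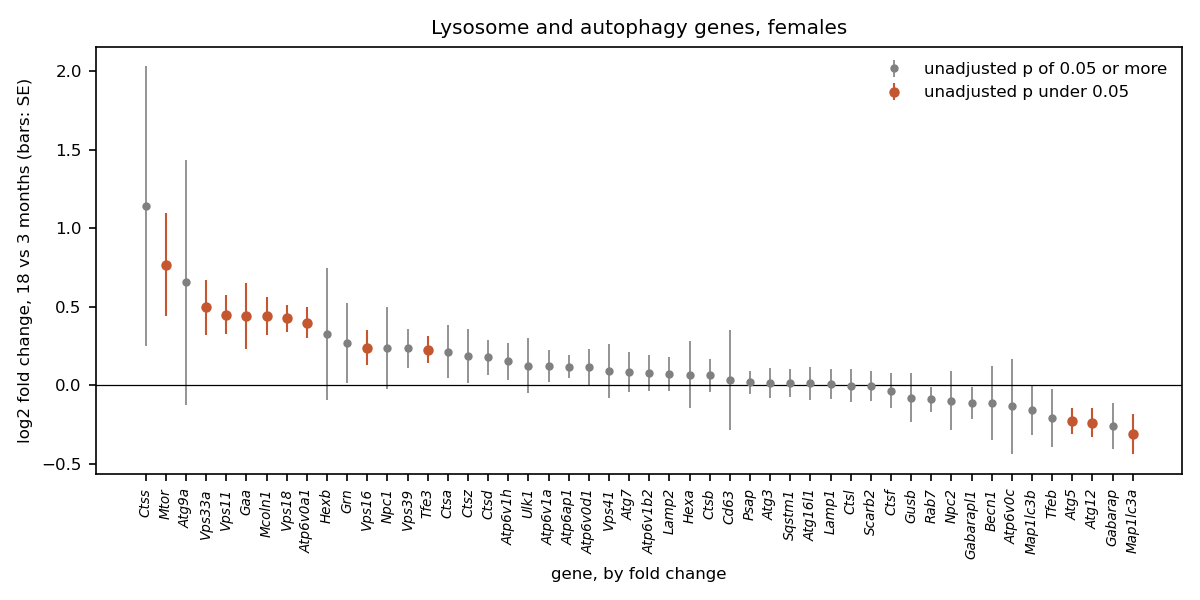
Fitted log2 fold change at 18 against 3 months (vertical axis, bars are SE) of 50 of the 51 lysosome and autophagy genes, ordered by fold change (horizontal axis); coloured points have an unadjusted p under 0.05 and none has an adjusted p under 0.05. The coloured points are 9 above and 3 below 0, the 3 being Atg5, Atg12 and Map1lc3a.

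Tfe3 and Tfeb bind the E-box palindrome TCACGTGA in promoters of lysosomal genes, and the promoter windows of the list were searched for these letters, which read the same on both strands. RefSeq windows of 300 bases on GRCm38.p6, from 250 before to 50 after the start of the gene, were at hand for 39 of the 51 genes. The letters were present in 8 of the 39 genes (20.5%), beside 320 of 32851 windows of all genes (0.974%). The first share counts genes and the second counts windows, so they are not in the same unit. The palindrome is known from lysosomal genes, so its share in a lysosomal list does not bear on age. Of the 10 higher members with an unadjusted p under 0.05, 8 had a window and 3 of these held the letters, while the other genes with them included Ctsd (0.18 ± 0.11 SE), Ctsa (0.22 ± 0.17 SE) and Atp6v1a (0.12 ± 0.10 SE). The 3 windows are shown because they belong to members with an unadjusted p under 0.05, with the palindrome in capitals.
Mcoln1, chr8:3500269-3500568, plus strand: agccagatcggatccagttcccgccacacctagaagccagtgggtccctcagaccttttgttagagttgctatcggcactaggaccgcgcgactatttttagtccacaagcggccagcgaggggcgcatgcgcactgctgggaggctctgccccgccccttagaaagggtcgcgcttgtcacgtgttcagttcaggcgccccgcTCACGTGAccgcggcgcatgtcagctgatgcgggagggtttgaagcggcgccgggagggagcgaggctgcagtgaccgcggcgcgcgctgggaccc
Vps33a, chr5:123572966-123573265, minus strand: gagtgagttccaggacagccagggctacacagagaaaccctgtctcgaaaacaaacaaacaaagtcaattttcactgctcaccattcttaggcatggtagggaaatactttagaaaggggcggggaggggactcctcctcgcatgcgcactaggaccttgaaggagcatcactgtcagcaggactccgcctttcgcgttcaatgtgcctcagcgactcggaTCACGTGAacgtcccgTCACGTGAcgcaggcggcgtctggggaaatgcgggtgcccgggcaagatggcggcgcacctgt
Vps16, chr2:130424070-130424369, plus strand: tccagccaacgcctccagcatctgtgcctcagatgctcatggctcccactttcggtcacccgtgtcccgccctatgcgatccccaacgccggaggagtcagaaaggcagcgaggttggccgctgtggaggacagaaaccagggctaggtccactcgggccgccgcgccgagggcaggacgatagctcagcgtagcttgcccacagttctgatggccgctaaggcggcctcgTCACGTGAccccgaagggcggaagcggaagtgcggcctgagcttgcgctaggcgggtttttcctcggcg
In Vps33a the palindrome occurs 2 times. A match of letters is a description of the window and no measure of binding.

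Innate immune receptors recognize microbial and damage signals, and the TREM1 pathway amplifies their response in myeloid cells. The study's text names TREM1 and complement signaling for these aged libraries, so neither list is independent evidence of its direction. Of 54 genes of the TREM1 and innate list 41 were tested, and Trem1 itself, Tnf, Il6 and Il1b were not, as their mean count was under 5. The median was 0.20, with 30 higher and 11 lower, and 7 higher and 1 lower at an unadjusted p under 0.05. Several of these members had few counts. Nod2, an intracellular sensor of bacterial cell wall, had 5, 4, 8 and 6 counts at 3 months and 10, 10, 18, 36 and 23 at 18 months, and its normalized counts did not overlap (1.40 ± 0.35 SE on the log2 scale, adjusted p = 0.154). Nlrc5, a regulator of MHC class I genes, had 7, 4, 5 and 4 counts and then 7, 10, 12, 25 and 21 (1.24 ± 0.40 SE on the log2 scale, adjusted p = 0.307). Tlr2, a receptor for bacterial lipoproteins, had 22.6, 17, 27.0 and 28.2 normalized counts and then 32.1, 73.9, 36.9, 52.1 and 61.3 (1.11 ± 0.36 SE on the log2 scale, adjusted p = 0.308). The chemokine Ccl3 had no count in the 4 libraries of 3 months and 4, 1, 1, 1 and 6 counts at 18 months, too few for a fold change. It averaged under 5 counts in the 9 libraries and passed the filter only through other libraries of the model. Its place among the higher members therefore carries no weight. Stat3, the transcription factor of interleukin-6 signaling, had 3276, 3767, 3261 and 3605 normalized counts and then 3932, 3733, 5075, 4975 and 4019 (0.32 ± 0.11 SE on the log2 scale, adjusted p = 0.308). Without 18-month replicates 3 and 4 the fold change of Stat3 was 0.16. The adaptor Myd88 was the lower member (-0.55 ± 0.24 SE).

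Complement tags synapses and cells for removal by microglia, and C1q, C3 and C4 are its parts best known from synapse loss. Of 41 complement genes 28 were tested, with 19 higher, 9 lower and a median of 0.35. At an unadjusted p under 0.05 there were 2, both higher and without overlap, 7.14% of the list beside 4.85% of all genes higher at that threshold. C4b, a component of the classical pathway, had 229, 80.8, 129 and 173 at 3 months and 261, 466, 269, 275 and 727 at 18 months (1.38 ± 0.45 SE on the log2 scale, adjusted p = 0.308), with the highest values in replicates 2 and 5. Itgax, the integrin alpha X of complement receptor 4, had 0, 0, 1 and 1 counts and then 4, 7, 2, 3 and 10, too few for a fold change. It averaged under 5 counts in these 9 libraries and passed the filter only through other libraries of the model. Its place in the share above and its lack of overlap therefore carry no weight, which leaves C4b. C1qa had 213, 63.8, 46.9 and 145 at 3 months, then 306, 566, 139, 60.6 and 327, and its groups overlapped widely (1.24 ± 0.93 SE on the log2 scale, adjusted p = 0.748). All 14 microglia markers had a higher fitted value at 18 months, with a median of 1.05 and none with an unadjusted p under 0.05. Their summed level was between 744 and 1998 normalized counts at 3 months and between 1082 and 3028 at 18 months, and none of the 14 was at 0 in any of the 9 libraries. Itgax, Tlr2, C1qa, C1qb and C1qc are also expressed by microglia, and the part of the microglia in these values was not tested.

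The interferon and antigen presentation list had 28 of 41 members higher, 4 of them at an unadjusted p under 0.05 (9.76%, beside 4.85% of all genes) and none lower at it. Besides Stat6 these were Tap1, the peptide transporter of MHC class I loading, with 32.1, 26.9, 30.5 and 41.6 at 3 months, then 46.7, 57.6, 66.9, 46.5 and 71.7 (0.82 ± 0.25 SE on the log2 scale, adjusted p = 0.264), Stat2 (0.43 ± 0.14 SE) and Rsad2 (1.2 ± 0.57 SE). Tap1 did not overlap between the ages and shares exonic sequence with Psmb9. Nfkb1, a transcription factor of inflammation, was at 0.10 ± 0.15 (SE). The median of the list was 0.13, and -0.098 without 18-month replicates 1 and 2, and the fold change of Stat2 was 0.14 without replicates 3 and 4. The 9 tested neutrophil markers were all higher, with a median of 1.66, which was -3.98 without replicates 1 and 2. Their summed level was between 68.0 and 1411 normalized counts at 3 months, and at 18 months it was 1895 and 4827 in replicates 1 and 2 and at most 261 in the other 3. Of 6 tested plasma and B cell markers 4 were higher, 3 of them at an unadjusted p under 0.05, and 1 was lower at it, with a median of 2.51, which was -1.39 without replicates 1 and 2, and with sums between 2313 and 2857 at 3 months and between 713 and 8119 at 18 months. No marker of either list was at 3 counts or fewer in all 9 libraries, and the part of these cells in the innate, complement and interferon values was not tested.

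Dync1h1 rose, but no other gene of its complex passed the adjusted threshold in edgeR's test. With limma voom and sample quality weights, 1 gene of the dynein and dynactin list was higher and 8 lower at an adjusted p under 0.05. Over all 17481 genes that test called 873 higher and 936 lower. Of 41 dynein and dynactin genes, 20 were above 0 and 21 below, with a median of -0.00078, and besides Dync1h1 only Capza2 and Dync1li2 had an unadjusted p under 0.05, both lower. Dync1li2, a light intermediate chain that links the motor to cargo, had 9669, 11407, 12000.0 and 10940.1 at 3 months and 10302, 9637, 8356, 8737 and 9651 at 18 months (-0.24 ± 0.11 SE on the log2 scale, adjusted p = 0.521). Capza2, a capping protein of the dynactin filament, was at -0.24 ± 0.091 (SE). Dctn1, the largest dynactin subunit, was at 0.34 ± 0.24 (SE). Kinesins, which carry cargo outward, were higher in 25 of 31 cases with a median of 0.14. Kif1a, which carries synaptic vesicle precursors, had 17758, 18739.5, 15204 and 17029 at 3 months, then 15939.5, 16438, 30899, 29440.4 and 21778 (0.41 ± 0.16 SE on the log2 scale, adjusted p = 0.438), so that replicates 1 and 2 lay within the younger range and replicates 3 to 5 above it. Kif5a had 14733, 13706, 29449, 27908 and 24159 at 18 months against 15571 to 17806 (0.39 ± 0.21 SE), with replicates 1 and 2 below the younger range and the other 3 above it. Without replicates 3 and 4 the fold changes of Kif1a and Kif5a were 0.071 and 0.067, and that of Kif1a was 0.67 without replicates 1 and 2. Kif26b, a kinesin without motor activity, did not overlap (0.40 ± 0.12 SE).

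The spectrins, ankyrins and plakins are giant proteins that cross-link the membrane skeleton. They were higher in 14 of 15 cases, with a median of 0.31 and 5 at an unadjusted p under 0.05, and none without overlap. Macf1, which joins actin to microtubules, had 1278, 1201, 1109.6 and 986 at 3 months, then 1157, 1478, 2231, 2202 and 1564 (0.59 ± 0.15 SE on the log2 scale, adjusted p = 0.19). Plec had 3433, 3209.9, 8108, 5923 and 4373 at 18 months against 2801 to 3825 at 3 months (0.61 ± 0.20 SE on the log2 scale, adjusted p = 0.316), and Ank1 was at 0.31 ± 0.11 (SE). In Plec and Ank1 replicates 1 and 2 lay within the younger range and replicates 3 to 5 above it. The other 2 at that threshold were Sptb (1.09 ± 0.52 SE), with 1125, 1342, 3887, 11898 and 5677 at 18 months, and Dsp (1.26 ± 0.56 SE), with no more than 42.9 normalized counts in any of the 9 libraries. The median of the list was 0.20 with length offsets, 0.60 without replicates 1 and 2 and 0.05 without replicates 3 and 4. Without replicates 3 and 4 Macf1 was at 0.29, Plec at 0.16, Ank1 at 0.14 and Sptb at 0.28, Sptb was at 1.66 without replicates 1 and 2, and with length offsets Macf1 was at 0.38 and Ank1 at 0.19. The exonic length of its members has a median of 17108 bases, beside 3917 for all genes tested. Among 36 neurofilament, tubulin and microtubule proteins, Map1a (0.43 ± 0.17 SE) and Map1s (0.31 ± 0.11 SE) were higher at that threshold and none lower, and Stmn4, a protein that destabilizes microtubules, was at -0.51 ± 0.25 (SE). Map1a and Map1s were at 0.11 and 0.13 without replicates 3 and 4.

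The integrin-linked kinase and actin list covers a pathway that the study's text names in aged motor neurons. It does so from a pathway analysis in its account of males, which the list counts in females here do not repeat. At an unadjusted p under 0.05 it held 2 higher and 3 lower members of 43 (4.65% and 6.98%, beside 4.85% and 4.03% of all genes). The integrin-linked kinase and actin list had a median of 0.017. Its largest value belonged to Tagln2, an actin-binding protein, which had 809, 915, 693 and 1114 at 3 months, 471 ± 59.1 (SD, n = 5) at 12 months and 359, 409, 154, 283 and 349.7 at 18 months (-1.5 ± 0.34 SE on the log2 scale, adjusted p = 0.106). The highest older library held less than the lowest younger one by a wide gap, and in males the fold change was -2.23. Lims1, an adaptor bound to integrin-linked kinase, was at -0.23 ± 0.075 (SE), and the small GTPase Rhoa at -0.26 ± 0.099 (SE).

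Apart from Htr1b the serotonin receptors did not pass the test. Of 14 receptors 11 were tested, 4 higher and 7 lower, with a median of -0.21. Htr7, an excitatory receptor, had 978, 1101, 1049 and 1016 at 3 months, then 662, 783, 926, 1033 and 936 (-0.25 ± 0.18 SE). Htr2a and Htr2c, known to raise motor neuron excitability, were at -0.015 ± 0.17 (SE) and 0.016 ± 0.16 (SE). Htr2a had 1014, 1068, 1801, 1959 and 1518 at 18 months against 1429 to 1644 at 3 months, so replicates 1 and 2 lay below all younger libraries and replicates 3 and 4 above. Htr5a split in the same way, with 64.2, 76.8, 205, 185 and 157 against 83.3 to 107 (0.48 ± 0.32 SE), and its fold change was 0.021 without replicates 3 and 4. Htr1a, an inhibitory receptor like Htr1b, was at -0.43 ± 0.24 (SE). Htr1d, Htr1f, Htr3a, Htr4 and Htr6 lay between -0.29 and 0.31. Among 15 tested adrenergic, dopamine and muscarinic receptors only Adra1a had an unadjusted p under 0.05, with 71.5, 75.4, 262, 267 and 134 at 18 months against 83.3 to 116 (0.64 ± 0.30 SE), and its value was -0.14 without replicates 3 and 4 and 1.08 without replicates 1 and 2. Adra2a and Drd5 were at 0.17 ± 0.18 (SE) and -0.30 ± 0.26 (SE).

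Glutamate receptors were higher in 21 of 25 cases, with a median of 0.11, and the sodium and calcium channels likewise in 21 of 25, with a median of 0.14. Both medians changed sign without 18-month replicates 3 and 4, to -0.075 and -0.06. At an unadjusted p under 0.05, 2 of the glutamate receptors were higher, among them Grm7 (0.32 ± 0.15 SE), and Grin2b, an NMDA receptor subunit, was at 0.19 ± 0.10 (SE). The fold change of Grm7 was 0.0041 without 18-month replicates 3 and 4, 0.20 without replicate 3 alone and 0.55 without replicates 1 and 2, and that of Grin2b was 0.02 with length offsets. Of the channels 0 were higher and 1 lower at it, and the calcium channels Cacna1g and Cacna1d were at 0.24 ± 0.13 (SE) and 0.35 ± 0.20 (SE), and at -0.068 and -0.11 without replicates 3 and 4. None of 25 GABA and glycine receptors reached it. Gabrb1 was at 0.27 ± 0.14 (SE) and Gabbr2 at 0.26 ± 0.14 (SE), and Gabbr2 was at 0.031 without replicates 3 and 4. Among 43 potassium and HCN channels, Kcna1, a delayed rectifier of axons, did not overlap, with 1674, 1550.2, 1444 and 1619 at 3 months, then 2519, 1963, 3104, 3439 and 2048 (0.73 ± 0.34 SE on the log2 scale, adjusted p = 0.521). Kcnh5 was at 0.44 ± 0.24 (SE), and without replicates 3 and 4 Kcna1 was at 0.47 and Kcnh5 at 0.23. In the transmitter release list Snap25, the SNARE protein of the presynaptic membrane, was lower in every 18-month library, from 111087 ± 7033 (SD, n = 4) to 96031 ± 6347 (SD, n = 5) (-0.21 ± 0.088 SE on the log2 scale, adjusted p = 0.471). Sncb was at -0.25 ± 0.10 (SE). Unc13a, which primes vesicles, ranged from 1383 to 8154 at 18 months against 1654 to 1854 (1.04 ± 0.40 SE), with replicate 4 far above the rest, and was at 0.32 without replicates 3 and 4.

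The regeneration-associated genes are switched on in motor neurons whose axon is cut. The study's text names Atf3, Sprr1a and Npy in aged motor neurons. It does so in its account of males, which also covers an age above 18 months, before it turns to females. The comparison of females here therefore does not repeat that of the study. In these females none of the 3 passed the test. Atf3, a stress transcription factor, had 38.0, 31.2, 28.1 and 634 at 3 months and 238, 316, 134, 130.3 and 151 at 18 months (0.08 ± 0.68 SE on the log2 scale, adjusted p = 0.994). Sprr1a, a protein of growing axons, had 4.75, 12.8, 17.6 and 1033 at 3 months, then 350.1, 498, 134, 95.1 and 127 (-0.16 ± 0.97 SE on the log2 scale, adjusted p = 0.99), and the neuropeptide Npy 54.6, 15.6, 55.1 and 633 at 3 months, then 166, 454, 62.8, 35.9 and 84.4 (-0.26 ± 0.88 SE on the log2 scale, adjusted p = 0.97). In all 3 genes 3-month replicate 4 exceeded every other library, and for Atf3 and Sprr1a each 18-month library exceeded the other 3 libraries of 3 months. Without 3-month replicate 4 the fold changes were 2.56 for Atf3, 4.34 for Sprr1a and 1.90 for Npy, and edgeR's adjusted p was 0.147, 0.186 and 0.68. That library also had the highest summed level of erythroid and neutrophil markers among the 4 of 3 months. Of 30 tested genes of the regeneration list 15 were higher and 15 lower. Ecel1, an endopeptidase induced by nerve injury, was higher without overlap, with 3134, 3836, 2908 and 3854 at 3 months, then 4423, 4292, 7069, 6707 and 3868 (0.62 ± 0.21 SE on the log2 scale, adjusted p = 0.341). Jun (-0.34 ± 0.11 SE), Basp1 (-0.40 ± 0.14 SE) and Tnfrsf12a (-0.32 ± 0.15 SE) were lower at an unadjusted p under 0.05. Without 18-month replicates 3 and 4 the fold changes of Ecel1 and Basp1 were 0.29 and -0.26, and that of Tnfrsf12a was -0.57 without replicates 1 and 2. The median of the list was 0.0086, but -0.46 without 18-month replicates 1 and 2 and 0.19 without replicates 3 and 4. Immediate early genes behaved alike, with -0.22 and 0.40, and Nr4a1 had 239, 235, 73.7, 109 and 147 at 18 months against 70.9 to 121 (0.82 ± 0.30 SE) and Dusp5 a fold change of 0.72 ± 0.25 (SE). Without replicates 1 and 2 Nr4a1 was at 0.29 and Dusp5 at 0.46. Of 32 trophic factors and receptors only Ntrk3, the receptor of neurotrophin 3, had an unadjusted p under 0.05 (0.20 ± 0.088 SE), which was 0.015 with length offsets, and Il6ra was at 0.79 ± 0.41 (SE).

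Of the 16 tested genes that the study's text names in aged motor neurons, Htr1b passed the adjusted threshold, and Ppp1r1c and Sfrp1 were the 2 others with an unadjusted p under 0.05, all lower. Apoe, the lipid carrier, had 12976, 2041, 10012 and 4619 at 3 months and 6432, 11309.9, 3078, 1715 and 13882 at 18 months (-0.026 ± 0.71 SE on the log2 scale, adjusted p = 0.999), and its level varied as much within each age as between them. Vim, Cd63, Serpinb1a, Il33, Cxcl12 and Tyrobp had log2 fold changes of 0.51 ± 0.47 (SE), 0.036 ± 0.32 (SE), -0.37 ± 0.48 (SE), -0.53 ± 0.58 (SE), 0.55 ± 0.57 (SE) and 1.01 ± 0.93 (SE). In males of the same ages the fitted value of Apoe was 1.45 and that of Vim 1.52. The difference between the sexes had an unadjusted p under 0.05 in edgeR's test for 0 of these 16 genes.

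The genes of energy production and protein synthesis followed the split of the 18-month libraries. Of 76 nuclear genes of oxidative phosphorylation 56 were lower, with a median of -0.07, which became -0.54 without replicates 1 and 2 and 0.13 without replicates 3 and 4. The 79 cytosolic ribosomal proteins had a median of -0.04, and -0.48 and 0.22 in the same settings. Sdha, the catalytic subunit of succinate dehydrogenase, differed from this pattern, with 12516, 12678, 11754 and 12379 at 3 months and 13818, 13553, 14223, 13177 and 13787 at 18 months without overlap (0.15 ± 0.066 SE on the log2 scale, adjusted p = 0.485), and so did the complex I subunit Ndufs1 (0.27 ± 0.11 SE). Sdhd, the membrane anchor of the same dehydrogenase, was at -0.30 ± 0.14 (SE). Without replicates 3 and 4 Ndufs1 was at 0.15 and Sdhd at -0.17, and without replicates 1 and 2 Sdhd was at -0.51. Rps3a1 was the ribosomal protein with the largest value, 1.25 ± 0.37 (SE), from 6706, 6933, 2189, 1165 and 2567 at 18 months against 1529 to 1788, and 0.27 without replicates 1 and 2. It has near-identical copies elsewhere in the genome. Rpl15 and Rps2 were at -0.17 ± 0.12 (SE) and -0.15 ± 0.13 (SE). The mitochondrially encoded genes mt-Nd5, mt-Co2 and mt-Atp6 were at 0.34 ± 0.49 (SE), -0.24 ± 0.39 (SE) and 0.43 ± 0.63 (SE).

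Protein quality control and redox genes gave few values beyond the spread. Of 46 chaperones and unfolded protein response genes, 2 were lower at an unadjusted p under 0.05. Cryab, the small heat shock protein alpha B-crystallin, had 2459, 2159, 2614 and 2390.1 at 3 months, then 1719, 2062, 1309.7, 1446 and 1539 without overlap (-0.58 ± 0.17 SE on the log2 scale, adjusted p = 0.221), and its exons overlap Hspb2. Hsph1, a cochaperone of Hsp70, was at -0.31 ± 0.11 (SE), and Asns, a target of the amino acid response, at 0.24 ± 0.13 (SE). Of 33 proteasome genes Psmd2 was the 1 member at that threshold (0.19 ± 0.085 SE), with Psmd1 at 0.30 ± 0.16 (SE) and Psmd11 at -0.14 ± 0.07 (SE), and Psmd2 was at 0.12 without replicates 1 and 2. Of 40 oxidative stress genes Sod2, the mitochondrial superoxide dismutase, was lower (-0.20 ± 0.078 SE), while the peroxiredoxins Prdx3 and Prdx6 were at -0.18 ± 0.087 (SE) and -0.33 ± 0.18 (SE).

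Collagens build the extracellular matrix. Of 41 collagens 35 were tested, 14 higher and 21 lower, with a median of -0.15 in females and 0.55 in males. The study's text names collagens as differing between the sexes in these libraries, so the list is not independent evidence of that. The difference between the sexes had an unadjusted p under 0.05 for 10 of the 35, beside 226 of 17481 genes (1.29%). Markers of skeletal cells stood at other values in males, with a median of 3.58 over 9 osteoblast markers and 0.69 over 6 chondrocyte markers, beside 0.19 and 0.11 in females, and 4 and 3 of them had an unadjusted p under 0.05 for that difference. The osteoblast and chondrocyte lists, like that of meningeal fibroblasts below, include collagen genes themselves, so they are not separate from the collagen list. In females the osteoblast markers summed to between 734 and 828 normalized counts at 3 months and between 721 and 859 at 18 months, with Bglap, Bglap2 and Mepe at 3 counts or fewer in all 9 libraries, and the chondrocyte markers to between 614 and 1111 and between 655 and 1082, with Matn3 and Snorc at 3 counts or fewer. Col3a1, a fibrillar collagen of connective tissue, had 261, 90.8, 42.2 and 14.8 at 3 months and 17.5, 41.4, 6.83, 2.82 and 7.47 at 18 months (-2.86 ± 0.98 SE on the log2 scale, adjusted p = 0.343), with 2 of the 5 older libraries within the younger range and 3 below it. Col6a3 and Col16a1 were at 0.94 ± 0.47 (SE) and -0.53 ± 0.28 (SE). All 10 tested markers of meningeal fibroblasts had lower fitted values, with a median of -0.93, beside 0.50 in males, and summed levels between 746 and 1942 at 3 months and between 539 and 1117 at 18 months, and the part of these cell types in the collagen values was not tested. Among the genes of the perineuronal net, Adamts5, a protease of the matrix, had 176, 166, 172 and 139.7 at 3 months, then 124, 118, 92.9, 91.5 and 79.2 without overlap (-0.70 ± 0.21 SE on the log2 scale, adjusted p = 0.253), and Adamts15 was at -0.83 ± 0.35 (SE), and at -0.52 without replicates 3 and 4. In the Wnt and beta-catenin list 38 of 58 tested genes were lower, with a median of -0.088 in females and 0.058 in males. The study's text names this pathway in aged motor neurons from a pathway analysis in its account of males. Signs over a list in females are another measure and do not repeat it. Sfrp1, a secreted inhibitor of Wnt, had 523, 409.9, 422 and 301 at 3 months, then 228, 257, 311, 289 and 312 (-0.57 ± 0.16 SE on the log2 scale, adjusted p = 0.199). Among the ligands, Wnt6 (-1.28 ± 0.45 SE) and Wnt7a (-0.35 ± 0.14 SE) were lower and Wnt10a (0.58 ± 0.20 SE) and Wnt9b (1.22 ± 0.40 SE) higher at an unadjusted p under 0.05, Wnt9b at no more than 20 counts in any library.

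The steroid receptors and hormone targets had 3 higher and 5 lower members of 29 at an unadjusted p under 0.05. Nr3c1, the glucocorticoid receptor, had 982, 963, 1094 and 897 at 3 months and 773, 768, 696, 718 and 801 at 18 months without overlap (-0.39 ± 0.12 SE on the log2 scale, adjusted p = 0.264). Of its cochaperones Fkbp4 was lower (-0.23 ± 0.088 SE) and Fkbp5, which the receptor itself induces, higher (0.27 ± 0.12 SE). The progesterone receptor Pgr (-0.27 ± 0.11 SE), the progesterone-binding Pgrmc1 (-0.24 ± 0.11 SE) and Srd5a1, which reduces testosterone (-0.26 ± 0.12 SE), were lower. The coactivator Ncoa1 was higher (0.27 ± 0.12 SE), but at 0.054 without 18-month replicates 3 and 4, where Pgrmc1 was at -0.14. The fold change of Nr3c1 was -0.41 without 18-month replicates 1 and 2 and -0.34 without replicates 3 and 4, and in males it was -0.037. The difference between the sexes had an unadjusted p under 0.05 in edgeR's test for 0 of the 29 genes.

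The change with age was then set beside that of males, whose 5 libraries of 18 months and 3 of 3 months are separate from those of the females but in the same model. The difference between the sexes had 0 genes past the adjusted threshold of edgeR (0% of 17481), 226 with an unadjusted p under 0.05 (1.29%), 2 genes in the DESeq2 Wald test and 0 with limma voom and sample quality weights (1637 at an unadjusted p under 0.05). For Dync1h1 and Htr1b the male fold changes were 0.53 and -0.91, for Pcdhb3 and Pcdhb10 1.04 and 0.94, for Vps18 and Vps11 0.40 and 0.44, and for Nrep and Ppp1r1c -0.86 and -0.69. Of the 592 genes without overlap in females, 555 had the same sign in males (93.8%), beside 11940 of all 17481 (68.3%). Paqr4 and Nr3c1 were among the genes whose male value was near 0, at -0.034 and -0.037. Neither passed the adjusted threshold for a difference between the sexes, and Nr3c1 did not reach an unadjusted p under 0.05 for it in edgeR's test.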

How the data were processed

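RNA bound to HA-tagged Rpl22 was measured by RNA-seq. The deposited values are read counts per gene, one table per library, with no normalization. Before deposit the authors used ea-utils and Btrim for trimming and made the counts with HISAT2 and HTSeq on GRCm38.93, removed samples after looking at plots of sample pairs, and tested with DESeq2. Versions and strand setting are not given in the sources used here. Depth is given as total counts per library. The number of libraries limits precision, and for genes with few counts so does counting error.

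Members and gene lists were chosen with earlier results of these data known. Genes whose counts averaged 5 or more across 31 libraries were kept, and 54165 of 54232 identifiers had a symbol. edgeR (4.0.16, R 4.3.3) was fitted as a quasi-likelihood model with 7 groups of age and sex and TMM normalization, with a biological coefficient of variation of 0.236. Adjusted p-values are over all 17481 genes tested. The single 24-month female stayed out of the model. Named genes were those with an adjusted p under 0.05, the 8 higher and 8 lower genes of smallest p among non-overlapping genes averaging 50 counts or more, up to 3 members of smallest p in each list, all serotonin receptors and all genes the study's text names, besides Chat, Rpl22 and markers. Further members of the lists were named after their values were seen. Alternatives were DESeq2 (1.42.0), limma voom (3.58.1) with sample quality weights, other normalizations and filters, the compared groups alone, a replicate block, transcript length offsets, library total as a term, the lower range of totals and leaving out libraries. Those leaving out 18-month replicates 1 and 2, or 3 and 4, were chosen after seeing the data. No 2 libraries agreed within sampling noise. Some list members, though counted in their lists, are not reported here by name or value. Scripts were tested on simulated data. Promoters came from RefSeq windows.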

Additional observations from a re-analysis of the deposited data

Results flagged for a closer look

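In 13 of 246 sets of libraries (123 named genes at each of the 2 ages) the highest or lowest library stood apart from the others by Dixon's ratio, 10 at 3 months and 3 at 18 months. Chance gives about 1 in 20. At 3 months, replicate 4 was highest for Atf3 (634 normalized counts, others 28.1 to 38.0), Sprr1a (1033, others 4.75 to 17.6), Npy (633, others 15.6 to 55.1) and Unc13a (1854, others 1654 to 1675), and lowest for Htr5a (83.3, others 103 to 107). Replicate 1 was lowest for Csrp2 (204, others 255 to 260.4) and highest for Nlrc5 (8.31, others 5.37 to 5.86). Replicate 2 was highest for Adra2a (1303, others 959 to 983), and replicate 3 was highest for Htr2a (1644, others 1429 to 1448) and lowest for Wnt9b (3.52, others 6.72 to 7.13). At 18 months, replicate 5 was highest for Cxcl12 (335, others 30.0 to 115) and Il33 (318, others 89.0 to 149), and replicate 2 for mt-Atp6 (32.5, others 9.71 to 13.4). The 3 genes of nerve injury among them, Atf3, Sprr1a and Npy, were all highest in the same 3-month library.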

How the results depend on the processing

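The count of genes passing the adjusted threshold depended on the test and the libraries. Against 2 in edgeR, DESeq2's Wald test called 106 (85 higher, 21 lower) and limma voom with sample quality weights 1809 (873 higher, 936 lower). It was 10 with a mean count of at least 50, 0 with only the groups compared (1271 at an unadjusted p under 0.05), 1 with length offsets, 1 with library total as a term and 0 in the lower range of totals (1435 at an unadjusted p under 0.05). Leaving out 1 library gave 0 to 13 calls (921 to 2096 at an unadjusted p under 0.05), with 0 without 3-month replicate 1, 2 or 3 or 18-month replicate 3, and 13 without 18-month replicate 1. Leaving out 18-month replicates 1 and 2, chosen after seeing the data, gave 500 (320 higher, 180 lower), and leaving out replicates 3 and 4 gave 1. The sex difference had 2 calls in the DESeq2 Wald test against 0 in edgeR. The replicate block gave 3 calls, and the replicate numbers did not pair the libraries (correlations of same-numbered deviations -0.30, -0.23, 0.017 and -0.32). The cause of these differences was not tested.

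Dync1h1 kept its direction in all 23 alternatives but lost the call with only the groups compared (edgeR's adjusted p = 0.507), length offsets (0.108), library total (0.0718), the lower range of totals (0.359) and without replicates 3 and 4 (0.231). Htr1b also kept its direction and lost the call with only the groups compared (0.337), the lower range (0.0793) and without replicates 3 and 4 (0.0848). Over all alternatives adjusted p ran from 8.4e-05 to 0.507 for Dync1h1 and from 4.3e-05 to 0.337 for Htr1b.

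Log2 fold changes of other named genes changed sign as follows. Without 18-month replicates 3 and 4 they were Adra1a -0.14, Apoe 0.50, Cacna1d -0.11, Cacna1g -0.068, Htr1d -0.048, Htr1f -0.24, Htr2c -0.12, Nfkb1 -0.071, Npy 0.29, Rpl22 0.065, Serpinb1a 0.11, Sprr1a 0.28 and mt-Nd5 -0.20. Without replicates 1 and 2 they were Atf3 -0.39, C5ar1 -0.14, Cd63 -0.43, Htr2a 0.24 and Htr6 0.045. With limma voom they were Cd63 -0.28, Cxcl12 -0.037, Htr2a 0.11, Npy 0.086 and Sprr1a 2.21, and in the lower range of totals Cxcl12 -0.19, Npy 0.29, Rpl15 0.0058, Rpl22 0.067 and Sprr1a 0.32. With length offsets they were Apoe 0.0022, Htr2c -0.052 and Nfkb1 -0.0075, with only the groups compared Apoe 0.0080 and Htr2a 0.021, and with the replicate block Npy 0.11 and Sprr1a 1.00. Htr2a was 0.0056 with DESeq2 size factors, 0.0057 in DESeq2's Wald test, 0.024 with no filter and 0.00093 with a mean count of at least 50. Leaving out 1 library gave ranges of -0.41 to 0.39 for Apoe, -0.28 to 2.56 for Atf3, -0.15 to 0.22 for Cd63, -0.41 to 0.78 for Cxcl12, -0.013 to 0.72 for Htr1f, -0.14 to 0.092 for Htr2a, -0.082 to 0.13 for Htr2c, -0.96 to 0.0057 for Il33, -1.14 to 1.90 for Npy and -0.61 to 4.34 for Sprr1a. The causes were not tested. Of the values of named genes under the alternatives, 2583 kept direction and side of the threshold, 147 passed it newly and 17 no longer did, and 42 of 1241 list medians moved by more than the spread between libraries.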

Other observations

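Of 21 circadian clock genes 10 were higher and 11 lower, with 2 higher and 0 lower at an unadjusted p under 0.05. Per1, a repressor of the clock that also responds to activity and glucocorticoids, did not overlap between the ages, with 513, 533, 332 and 595 normalized counts at 3 months and 760.1, 910.4, 796, 723 and 720.3 at 18 months (0.66 ± 0.15 SE on the log2 scale, adjusted p = 0.0958 in edgeR). Its fold change was 0.60 without 18-month replicates 1 and 2, 0.69 without replicates 3 and 4 and 0.39 in males. Of 32 genes of cholesterol synthesis and lipoproteins, Lss (0.48 ± 0.16 SE) and Lrp1 (0.58 ± 0.24 SE) were higher and Msmo1 (-0.25 ± 0.12 SE) lower at that threshold, with a median of -0.027. Idi1, an enzyme of isoprenoid synthesis, did not overlap, with 764, 708, 765 and 715 at 3 months, then 550.0, 621, 548, 628 and 508 (-0.37 ± 0.28 SE). Of 33 genes tied to amyotrophic lateral sclerosis 3 were higher at an unadjusted p under 0.05 and 0 lower, among them Atxn2 (0.33 ± 0.14 SE) and Tbk1 (0.29 ± 0.13 SE). Without replicates 3 and 4 Atxn2 was at 0.039. Hnrnpa1, an RNA-binding protein of that list, had no overlap, from 3548 to 4099 at 3 months to 2451 to 3359 at 18 months (-0.30 ± 0.17 SE).

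A single library from a 24-month female, with 14712061 counts, was not in the model and is given here as CPM, the count relative to the library total. Dync1h1 was at 788, where the 3-month females lay between 471 and 571 and those of 18 months between 681 and 1201. Htr1b was at 2.65, beside 5.95 to 8.09 at 3 months and 2.06 to 3.98 at 18 months. Pcdhb3 was at 20.5, above the 16.2 to 18.5 of 18 months, and Tagln2 at 7.07, below the 7.20 to 19.1 of 18 months. Vps18 was at 87.8, within the 87.3 to 105.5 of 18 months, and Nrep at 27.8, beside 21.5 to 27.1 at 18 months and 41.2 to 59.5 at 3 months. Chat was at 13.3, lower than in any of the 9 other libraries described.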
